A study of Mus musculus with 2 samples.

Results

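The regions described here are the read clusters of a UPF1 pull-down that lie between 5000 and 10000 nt upstream of the 3′ end of a gene locus. They were chosen by position alone: a cluster had to lie on the strand of a single protein-coding RefSeq locus of at least 20000 nt, with its midpoint in that window. The rule found 5928 clusters in 2435 genes, out of 123349 clusters in all (4.81%). They came from 20 chromosomes (3017 plus strand, 2911 minus strand) and made up 5.77% of the 102797 clusters assigned to loci of this length. The data come from mouse neural progenitor cells of the cortex, grown in culture, of genotype Upf2fl/fl, in which the Upf2 gene carries loxP sites. Both libraries carry this genotype and the word MOCK, which the labels leave unexplained. A single library was made from RNA pulled down with a UPF1 antibody (eCLIP, in which proteins are crosslinked to RNA before the pull-down) and 1 from input RNA, and neither has a replicate. No value below therefore measures the spread between cultures, and no test was made.

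UPF1 is an RNA helicase that binds RNA with little sequence preference and moves along it, and it is the central factor of nonsense-mediated decay, the pathway that removes mRNAs whose translation ends too early. Translating ribosomes clear UPF1 from coding regions, so in other cell types it is found mainly downstream of stop codons. Long regions after the stop codon are common in neural transcripts, and they carry sites for microRNAs and RNA-binding proteins. A cluster more than 5000 nt from the outer end of a locus can lie in such a long terminal part, in an earlier exon or in an intron. The annotation used here gives only the outer bounds of each locus, so these could not be told apart.

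Genome sequence under the clusters was not used here. Overlaps of clusters with a RefSeq promoter or microRNA hairpin on their strand were not listed for the whole window. The part that was listed held 4 such clusters, and none of the 4 was enriched. How many of the 5928 clusters have such an overlap, and whether any of those is enriched, was therefore not established. The 2 below are shown because they place a cluster on an annotated transcription start and on a microRNA hairpin, and both were picked after their values were seen. In B3gat1, which encodes the glucuronyltransferase of the HNK-1 carbohydrate epitope, a cluster at chr9:26751524-26751602 (plus strand, GRCm38.p6) spans an annotated start at 26751562, 9787 nt from the 3′ end. The 38 bases of this cluster before the start are printed, from 26751524 to 26751561. In P2rx7, an ATP-gated ion channel, a cluster at chr5:122682529-122682621 (plus strand) covers the first 25 bases of the hairpin of Mir8115 (chr5:122682597-122682715), in capitals. The mature microRNA is given with its seed, bases 2 to 8, in capitals, and the cluster covers none of it.
B3gat1 cluster, bases before the start: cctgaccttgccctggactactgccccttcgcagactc
Mir8115 hairpin: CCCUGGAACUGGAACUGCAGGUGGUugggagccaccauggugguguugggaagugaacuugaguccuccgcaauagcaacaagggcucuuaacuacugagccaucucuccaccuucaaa
mmu-miR-8115: cCGCAAUAgcaacaagggcucu
The B3gat1 cluster had a log2 fold of 1.62 over input, from 25 immunoprecipitate reads against 4. The P2rx7 cluster reached 3.44 from 22 reads against 1, with a −log10 p of 2.79, just under the threshold of 3.

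A cluster was called enriched when its log2 fold of immunoprecipitate over input was at least 3 and its −log10 p at least 3, both taken from the authors' list. Most clusters in the window were close to input. Of 5928, 607 were enriched (10.2%, Wilson 95% interval 9.49 to 11.0), against 11.6% of all clusters in the list, so the share in the window is near that of the whole list. The median log2 fold in the window was 0.81 (quartiles 0.30 and 1.78), with a lowest value of -3.88 and a highest of 7.08, and 1361 clusters (23.0%) were at or below 0. A further 107 clusters reached a fold of 3 without passing the p threshold, and 109 passed the p threshold with a fold under 3. The 607 enriched clusters had a median log2 fold of 4.19 (quartiles 3.71 and 4.85). They fell in 172 of the 2435 genes (7.06%, interval 6.11 to 8.15). The intervals cover counting error only and treat clusters, or genes, as independent, which clusters of the same gene are not.

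The share of enriched clusters was lower in each successive kilobase of the window. In loci of at least 20000 nt, the final 5000 nt held 24489 clusters, of which 36.8% passed (interval 36.2 to 37.4). The share was 17.5% from 5000 to 6000 nt (267 of 1523), 12% from 6000 to 7000 nt (155 of 1292) and 8.04% from 7000 to 8000 nt (90 of 1119). It was 5.63% from 8000 to 9000 nt (57 of 1013) and 3.87% in the last kilobase of the window (38 of 981). The intervals of neighbouring kilobases overlap from 7000 nt on, while those of the nearest and the farthest kilobase do not (15.7 to 19.5 and 2.84 to 5.27). Between 10000 and 20000 nt, 142 of 8702 clusters were enriched (1.63%, interval 1.39 to 1.92). The median fold of all clusters was 1.20 in the nearest kilobase of the window and 0.56 in the farthest, against 2.68 in the last 5000 nt.

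**Figure D1:**
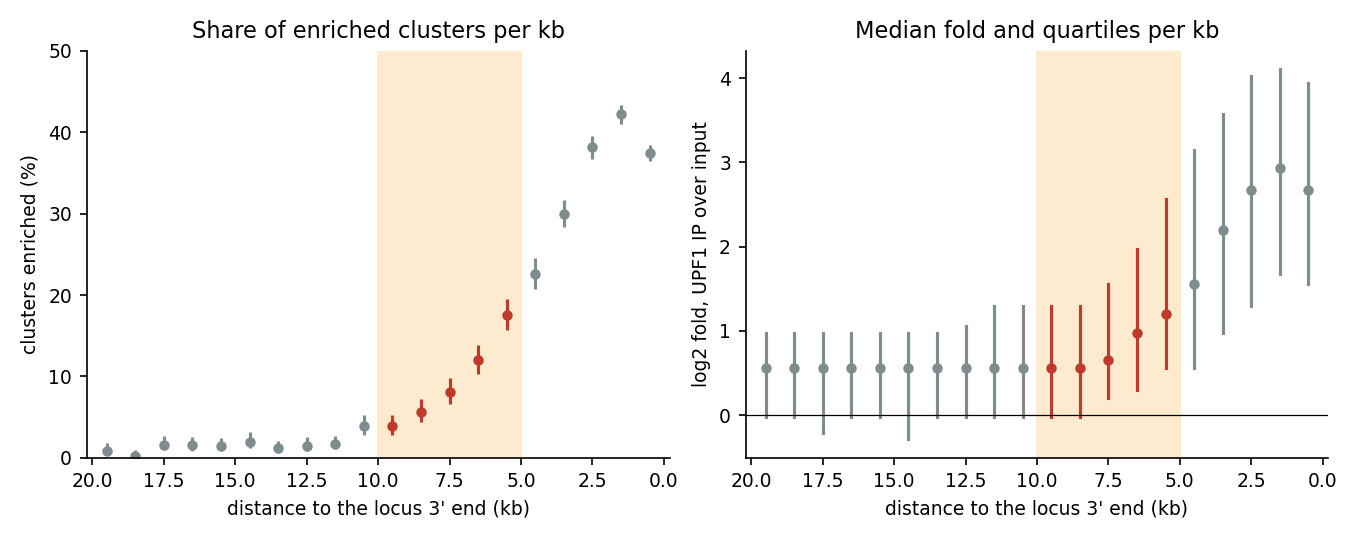
Left, percentage of clusters enriched in each kilobase from the 3′ end of loci of at least 20000 nt, with Wilson 95% intervals; right, median log2 fold with a line from the lower to the upper quartile. The window from 5 to 10 kb is shaded and in red: the share goes from 17.5% to 3.87% across it, and the median fold from 1.20 to 0.56.

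Read number changed along with distance, and the part it plays in the gradient was not tested. The reads behind each fold were rebuilt from the steps in the 2 deposited columns, for 4559 of the 5928 clusters; those with a fold at or below 0 were left out. Enriched clusters of the window rested on 64 immunoprecipitate reads at the median (quartiles 40 and 117.5, range 24 to 849) against 2 input reads, and the others with a rebuilt count held 5 against 1. No cluster with a rebuilt count below 24 was enriched. An input count of 1 may also stand for none. Of the 3956 rebuilt clusters that were not enriched, 3558 had under 20 reads, so for these an enrichment was not detectable at this depth. Among clusters with at least 20 reads, 60.2% of 1005 in the window were enriched, against 64.7% of all such clusters in the list. In the same kind of locus the figure was 76.5% of 11745 in the last 5000 nt and 28.6% of 497 between 10000 and 20000 nt. Immunoprecipitate reads are part of the fold, so this selection favours enriched clusters everywhere. Of the 603 enriched clusters with rebuilt counts, 280 (46.4%) rested on an input count of 1.

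**Figure D2:**
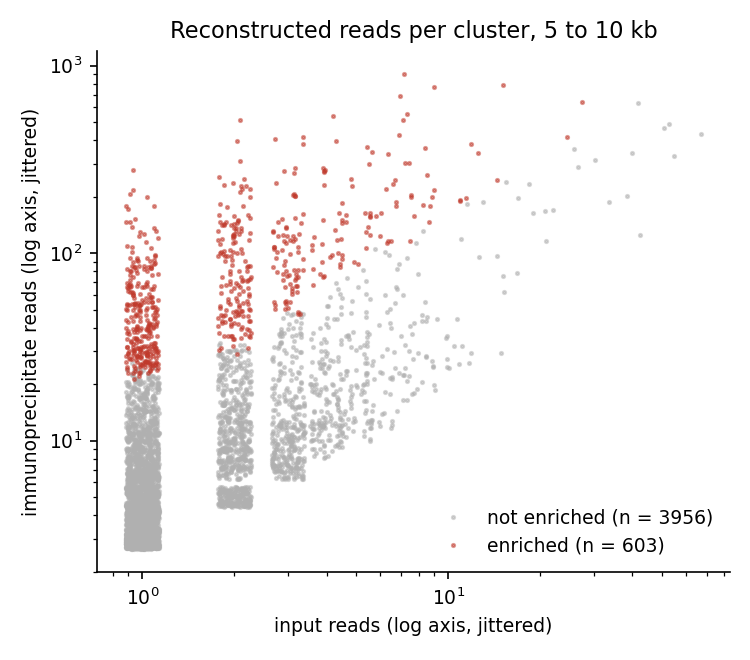
Immunoprecipitate reads (y axis) against input reads (x axis) rebuilt for each cluster of the window, both on log axes, with points spread slightly so that they can be seen. The 603 enriched clusters, in red, start at 24 reads, and most of the 3956 others, in grey, lie below 20.

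Enriched clusters were wider than the rest, with a median of 88 nt against 61 nt. These also adjoined other clusters more often: 266 of 607 (43.8%) touched a neighbour on their strand with no base between, against 217 of the other 5321 (4.08%). No clusters overlapped, but touching ones may share reads, so the counts of enriched clusters per gene below are not counts of separate bound sites. The enriched clusters were also concentrated in few genes. A gene with an enriched cluster in the window had a median of 2, and 64 genes had 1, 65 had 2 to 4 and 43 had at least 5. The 20 genes with the most held 229 of the 607 (37.7%). In 27 genes every cluster of the window was enriched, among them 9 genes with at least 5 clusters there.

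The 172 genes with an enriched cluster in the window spanned a median of 83085 nt, against 52281 nt for the 2263 genes with clusters there but none enriched. They had a median of 6 RefSeq transcripts against 5, and 5 clusters in the window against 2. The shares with an enriched cluster in the last 5000 nt lay close together: 72 of 172 genes (41.9%) against 969 of 2263 (42.8%). By chromosome, the enriched clusters ranged from 3 of 251 on chromosome 10 (1.20%) to 55 of 252 on chromosome 16 (21.8%), where 10 genes held them.

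The genes fell into 3 patterns, set by where their other enriched clusters lay. In 54 (31.4%, interval 24.9 to 38.7) the enriched clusters ran from the last 5000 nt into the window with no gap above 1000 nt between neighbours. In 18 (10.5%, interval 6.72 to 15.9) the last 5000 nt held enriched clusters too, but a gap above 1000 nt lay between. This count depends on the settings: it was 31 with a log2 fold minimum of 2 and 6 in loci of at least 50000 nt. In 100 (58.1%, interval 50.7 to 65.3) no cluster in the last 5000 nt was enriched. This lack is not particular to them: of the 2263 genes without an enriched window cluster, only 969 (42.8%) had an enriched one in the last 5000 nt. These 3 groups held 243, 31 and 333 of the enriched clusters. The highest fold per gene had a median of 5.03 in the continuous group, 3.77 in the gapped group and 4.24 in the group enriched only upstream.

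**Figure D3:**
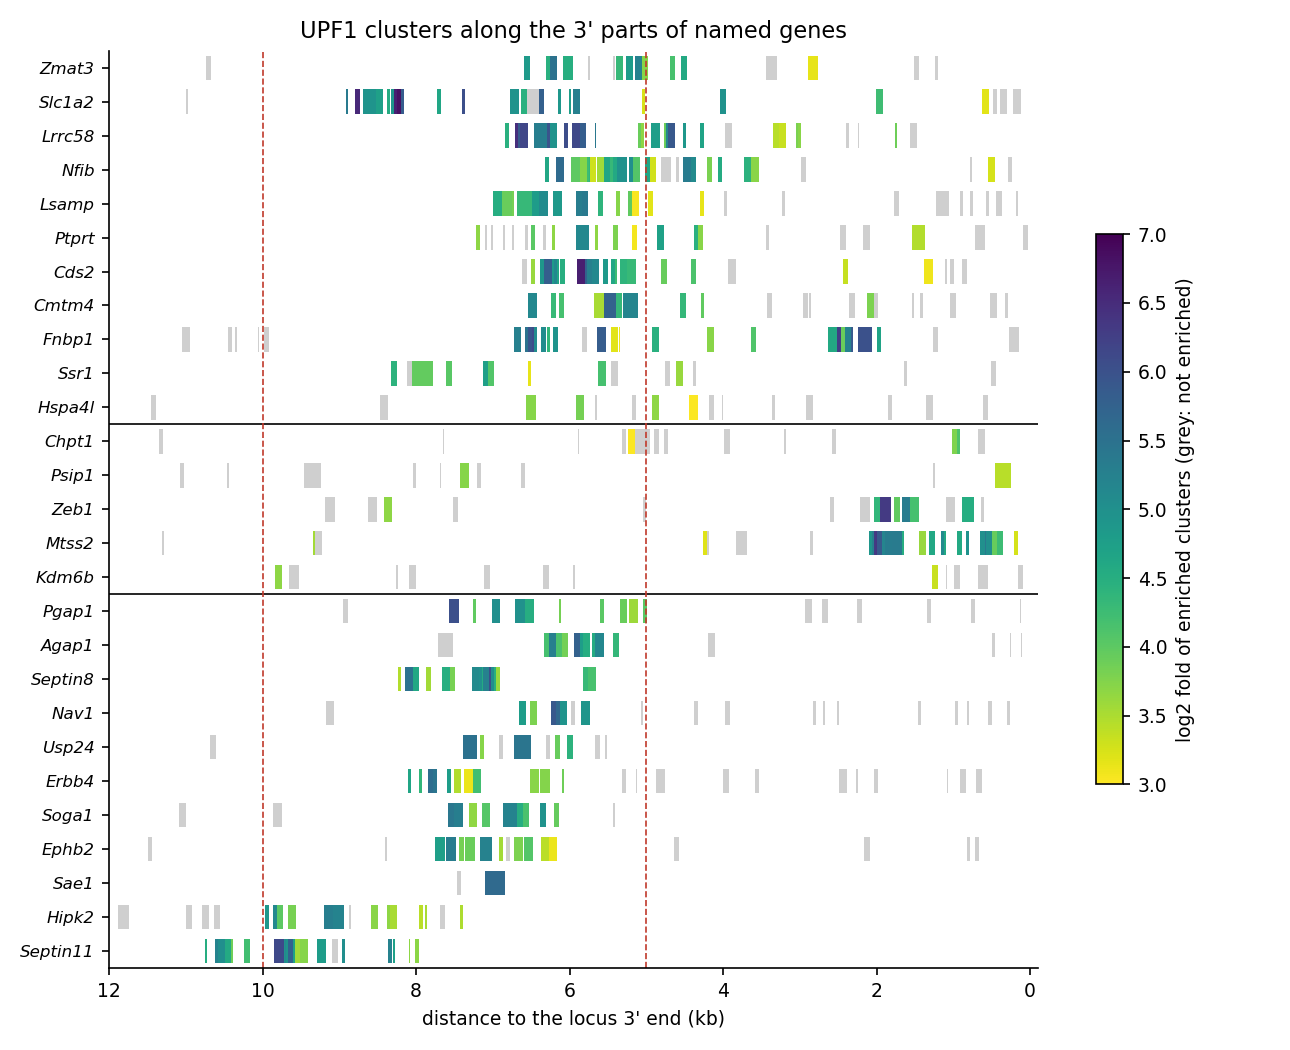
Clusters along the last 12 kb of named genes, each drawn to scale at its distance from the 3′ end (x axis, kb), with very narrow ones widened so that they can be seen; enriched clusters are coloured by log2 fold, others are grey, and dashed lines bound the window. Black lines part the 3 groups: continuous with the last 5 kb (top), separated by a gap (middle), and enriched only upstream of 5 kb (bottom).

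In the continuous group the bound stretch ended a median of 5388 nt from the 3′ end (quartiles 5199.5 and 6092.75), and in 39 of 54 genes before 6000 nt. Only 3 stretches passed 7000 nt. The longest belonged to Slc1a2, the astroglial glutamate transporter GLT-1 (chromosome 2, 102658239 to 102790784, GRCm38), and ran from 4001 to 8893 nt. Slc1a2 had 18 of 20 window clusters enriched over 1105 nt, with folds from 3.25 to 6.83 and a median of 4.94. Its highest cluster, 8225 nt from the end, had 462 reads against 2 (interval of the log2 fold 4.97 to 9.88), and the cluster next to it at 8269 nt reached 6.65 from 408 reads against 2. In its last 5000 nt, 3 of 6 clusters were enriched with a highest fold of 4.96. The widest gap inside the stretch was 972 nt, close to the limit of 1000 nt. Ssr1, a subunit of the translocon-associated complex of the endoplasmic reticulum, reached next farthest upstream, to 8293 nt. It had 7 of 9 window clusters enriched, with folds from 3.15 to 4.76. Ptprt, a receptor-type tyrosine phosphatase, reached 7190 nt with 7 of 13 enriched and a highest fold of 5.13.

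Lsamp, an adhesion protein of the IgLON family on neurons (chromosome 16, 39984254 to 42181679), had the most enriched nucleotides of any gene in the window, 1210 nt in 13 clusters. All 13 of its window clusters were enriched, between 5143 and 6934 nt, with folds from 3.03 to 5.39. The highest held 85 reads against 1 (interval 2.87 to 10.71). Toward the 3′ end the signal was weaker, with 2 of 12 clusters enriched in the last 5000 nt, up to a fold of 3.19. Farther upstream than 10000 nt, 0 of 316 clusters passed. An approximate upper limit of that share is 0.949% (3 divided by the number of clusters, not a Wilson interval). Nfib, a nuclear factor I protein that drives gliogenesis (chromosome 4, 82290173 to 82506751), had 14 of 14 window clusters enriched over 1024 nt, between 5132 and 6299 nt. Its folds ran from 3.30 to 5.61 and its clusters were deep, from 100 to 505 reads, so that the highest, with 199 reads against 2, has an interval of 3.74 to 8.67. Cds2, which makes CDP-diacylglycerol for phosphatidylinositol synthesis, had 16 of 17 enriched over 989 nt. The highest of these, 6.67 (interval 4.18 to 11.98), came from 207 reads against 1, while its 9 clusters in the last 5000 nt had a highest fold of 4.13. Lrrc58 had 13 of 13 enriched over 845 nt with a median fold of 5.83, and Cmtm4, a MARVEL-domain membrane protein, 7 of 7 over 812 nt with folds from 3.53 to 5.76.

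Other stretches that reached far upstream were found in Fnbp1, an F-BAR protein of endocytosis, Zmat3, an RNA-binding target of p53, and Hspa4l, a chaperone. Fnbp1 had the widest of them, from 1966 to 6676 nt, with 11 of 13 window clusters and 11 of 13 in the last 5000 nt enriched. Zmat3 reached 6552 nt with 8 of 10 window clusters enriched and a highest fold of 5.50. Hspa4l reached 6499 nt, but only through 2 clusters, the higher with 29 reads against 1 and a fold of 3.83 (interval 1.24 to 9.19), and both calls were lost at a −log10 p minimum of 5 and with input counts of 1 left uncalled.

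In 4 of the 10 genes with the highest folds of the window the top cluster lay close to its 3′ edge, between 5038 and 5193 nt. Fam168a had the highest, 7.08 (interval 4.59 to 12.39), from 275 reads against 1 at 5103 nt. A neighbouring cluster of Fam168a at 5304 nt reached 5.68 from 728 reads against 7. Csnk1d, a casein kinase of the circadian clock, reached 6.62 from 200 reads against 1 at 5067 nt, and all 6 of its window clusters were enriched. Eif4ebp2, a repressor of cap-dependent translation, reached 6.36 at 5038 nt with both of its window clusters enriched, and Smad4, the common partner of the SMAD signalling proteins, 6.24 at 5193 nt with 2 of 4. Slc1a2, Cds2, Lrrc58 (6.46), Fnbp1 (6.08) and the septin genes Septin11 (6.12) and Septin8 (6.04) complete these 10. Their intervals overlap, so their order is not resolved.

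In the 72 genes enriched both in the window and in the last 5000 nt, the highest fold was higher in the window in 37 and lower in 35. The median difference, window minus last 5000 nt, was 0.04 (quartiles -1.02 and 0.58), with medians of 4.64 and 4.74. Of the 72 genes, 10 were higher in the window by at least 1, with Cds2 (6.67 against 4.13), Lsamp (5.39 against 3.19) and Slc1a2 (6.83 against 4.96) at the top, and 19 were lower by at least 1. Most single intervals are wider than these differences. A highest value also depends on how many clusters it is taken over, and this was not evened out. Enriched clusters in the window and in the last 5000 nt numbered 16 and 4 in Cds2, 13 and 2 in Lsamp and 18 and 3 in Slc1a2. In Ednrb, Adcyap1r1 and Sdc3, which were lower in the window by the most, they numbered 1 and 26, 3 and 38, and 1 and 31.

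**Figure D4:**
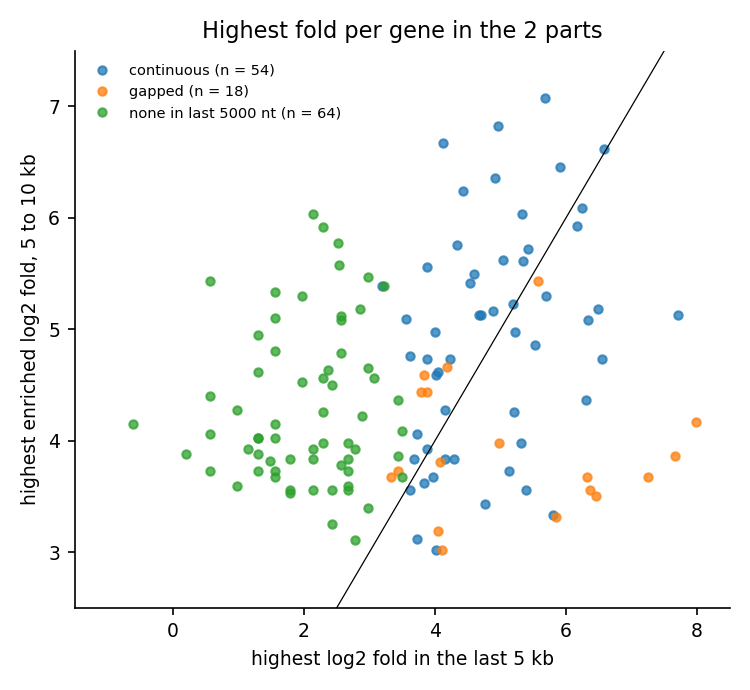
Highest log2 fold among enriched clusters 5 to 10 kb from the 3′ end (y axis) against the highest in the last 5 kb (x axis), 1 point per gene, with the line of equality. For the 64 genes with clusters but none enriched in the last 5 kb, in green, x is the highest fold of any cluster there, at most 3.50; the 36 genes with no cluster there are not drawn, and the 72 others lie on both sides of the line.

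The largest group was bound in the window with nothing enriched nearer to the annotated 3′ end. Of these 100 genes, 36 had no cluster at all in their last 5000 nt. The other 64 had 301 clusters there, with a median highest fold per gene of 2.22. In 59 of the 100 genes the nearest enriched cluster lay more than 6000 nt from the end (median 6203 nt). Single clusters were common, in 39 genes, and 23 genes had at least 5. In Cdc23, an enriched cluster in the last 5000 nt lay where loci overlap and was assigned to no gene, so it is not certain that this gene belongs here.

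Among these genes were 2 septins, GTP-binding proteins of the cytoskeleton. Septin11 (chromosome 5, 93090995 to 93182368) had its nearest cluster 7989 nt from its 3′ end. Of its 17 window clusters, 16 were enriched, between 7989 and 9786 nt, with folds from 3.57 to 6.12, and 6 of its 16 clusters beyond 10000 nt were enriched as well. Those from 9464 to 9786 nt touched each other with no base between, in pieces as narrow as 4 nt. The highest cluster of Septin11 held 425 reads against 3 (interval 4.57 to 8.41). Septin8 (chromosome 11, 53519397 to 53549605) had its nearest cluster at 5710 nt and 16 of 16 window clusters enriched up to 8218 nt, with folds from 3.46 to 6.04. In both genes the block of enriched clusters stopped well before the annotated end of the locus.

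Several signalling receptors and a kinase also belonged to this group. Hipk2, a kinase of the stress response (chromosome 6, 38687512 to 38876331), had its nearest cluster at 7403 nt and 12 of 14 window clusters enriched up to 9946 nt, with folds from 3.41 to 5.31. Erbb4, the neuregulin receptor (chromosome 1, 68031884 to 69108576), had 11 of 13 enriched between 6088 and 8086 nt, with folds from 3.11 to 5.58, while the 9 clusters in its last 5000 nt reached 2.54. Ephb2, a receptor for ephrin-B ligands (chromosome 4, 136647536 to 136836326), had 10 of 12 enriched between 6217 and 7694 nt with a highest fold of 5.33, and its 4 clusters nearer the end reached 1.56. Fzd3, a Wnt receptor, had its nearest cluster at 8785 nt and 5 of 5 enriched, the highest from 387 reads against 6 (4.99, interval 3.85 to 6.44). Enah, a regulator of actin filaments, began at 8124 nt with 5 of 7 enriched, and Kcna2, a potassium channel, at 8305 nt with 5 of 6.

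Further members of this group were Pgap1, an enzyme of GPI-anchor remodelling (10 of 11 enriched, highest fold 6.03), Soga1 (9 of 11, 5.42), Agap1, an Arf GTPase-activating protein (10 of 12, 5.77), Nav1, a microtubule-associated guidance protein (6 of 9, 5.92), and Usp24, a deubiquitinase (5 of 9, 5.51). Sae1, a subunit of the SUMO-activating enzyme, had a single enriched cluster of 259 nt at 6972 nt, with 202 reads against 2 and a fold of 5.63 (interval 3.76 to 8.69). With clusters of input count 1 left uncalled, Usp24 had no call. For Pgap1 the first enriched cluster lay at 5016 nt, just inside the window, and the highest at 7506 nt.

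In the gapped group the widest gaps lay in genes with a single enriched cluster in the window. Kdm6b, a demethylase of histone H3, had 8469 nt between its enriched cluster at 9796 nt and the next one downstream. The gap was 6860 nt in Psip1, a chromatin-binding protein, and 6291 nt in Zeb1, a transcription factor of epithelial-mesenchymal transition. All 3 clusters were shallow, with 26 or 27 reads against 1, and all 3 calls were lost at a −log10 p minimum of 5 and with input counts of 1 left uncalled. Psip1 had no window cluster when only clusters inside a single locus were used. Mtss2, an actin-binding membrane protein, had a better supported one at 9332 nt (3.56, 120 reads against 5, interval 2.30 to 5.21), separated by 5059 nt from the next, with 23 of 28 clusters enriched in its last 5000 nt. The gap in Chpt1, a phosphatidylcholine enzyme, was 4140 nt, with a fold of 3.02, and this call was also lost at a −log10 p minimum of 5.

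Some genes had many clusters in the window and none enriched. Myo10, the myosin of filopodia, had 13 with a highest fold of 2.44, although 9 of 12 clusters in its last 5000 nt were enriched, up to 7.03. Chd4, the remodeller of the NuRD complex, had 11 with a highest fold of 2.56 and 6 of 9 enriched nearer the end. B3gat1 had 10, up to 2.88, and 12 of 13 enriched nearer the end, Lrch3 10, up to 1.56, and Cuedc1 10, up to 3.44. Gria2, an AMPA receptor subunit, had 11 window clusters with a highest fold of 2.98 and a single cluster nearer the end, at -0.02. In all, 199 genes had at least 5 clusters in the window and none enriched.

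Lists of genes grouped by function were compared with the window genes as a whole, where 172 of 2435 (7.06%) were enriched with a median cluster fold of 0.81. Across 9 lists, 40 of the 269 genes with a window cluster had an enriched one (14.9%). The lists were drawn up with earlier results of these data known, so a share above the rest is a description and nothing more. Each list is a selection and not the whole of its class. The share of genes also depends on how many window clusters each gene has, which differed between lists. By cluster, 10.2% of the window was enriched, against 34.6% for receptors, 27.3% for transcription factors, 26.6% for transporters and 16.5% for ubiquitin genes. The share of clusters was 13.1% for adhesion genes, 11.4% for chromatin regulators, 11.1% for RNA-binding proteins, 8.45% for kinases and 0 for factors of nonsense-mediated decay.

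The list of receptors and receptor-type phosphatases, which does not hold Ptprt, had the highest share, 7 of 26 genes (26.9%, interval 13.7 to 46.1), with 36 of 104 clusters enriched and a median fold of 2.15. Besides Erbb4, Ephb2 and Fzd3 they included Lifr, the receptor for leukaemia inhibitory factor, at 4.73, with Adcyap1r1, Ednrb and Igf1r. Ddr1, a collagen receptor, and Lrp1, an endocytic receptor, had 7 window clusters each and none enriched, with highest folds of 2.56 and 0.98. Among transcription factors of neural and glial development 5 of 25 genes were enriched (20%, interval 8.86 to 39.1), with 30 of 110 clusters and a median of 1.5. Nfib and its relative Nfia accounted for 24 of the 30, and Nfia reached 4.98 with 10 of 16 clusters enriched. The nuclear receptor Rorb reached 5.11, Sox6, a regulator of neural fate, 4.62, and Zeb1 3.68. Zbtb20 and Rora had 8 and 7 window clusters without enrichment, with highest folds of 1.98 and 2.56.

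In the list of adhesion, cytoskeleton and matrix genes, 7 of 40 were enriched (17.5%, interval 8.74 to 32.0, median fold 1.49). Dcx, the microtubule protein of migrating neurons, had 2 of 7 clusters enriched, both at 4.86, the deeper from 236 reads against 4 (interval 3.48 to 6.75), followed by Enah at 4.83, Arhgef12, a guanine nucleotide exchange factor, at 4.73 and Nrcam, a neuronal adhesion protein, at 4.44. Without Ttyh1, Ttyh3 and Lrrc8a, which are described as chloride or anion channels, the list stood at 6 of 38 (15.8%, interval 7.44 to 30.4). Arhgap32, a GTPase-activating protein, and Cadm2, an adhesion protein, had 8 and 7 clusters there without enrichment, up to 2.98 and 3.37. Ubiquitin ligases and deubiquitinases had 5 of 30 (16.7%, interval 7.34 to 33.6, median 1.30). Usp24 led at 5.51, Cbl, a ligase of receptor turnover, reached 5.47, Usp6nl 4.02 and Fbxl20 3.93. Usp6nl is a Rab GTPase-activating protein and neither a ligase nor a deubiquitinase, and without it the list stood at 4 of 29 (13.8%, interval 5.50 to 30.6). The ligases Trim9 and Ube3a had 6 and 5 clusters, up to 2.56 and 2.98. Cbl, Usp6nl and Nrcam were not called with input counts of 1 left uncalled, nor was Usp6nl at a −log10 p minimum of 5.

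MicroRNA effectors and RNA-binding proteins had 4 of 28 (14.3%, interval 5.70 to 31.5, median 0.98). Celf1, a splicing and decay regulator, had 6 of 7 clusters enriched up to 5.42, with a stretch continuous from 3970 to 5798 nt. Celf2 reached 4.59 with 2 of 14. Qk, the glial RNA-binding protein quaking, had the most window clusters of any gene, 27, of which 4 were enriched up to 3.81 (171 reads against 6, interval 2.66 to 5.27). Caprin1 had 1, at 5009 nt, with a fold of 3.33, and it left the window when distance was measured from the edge of the cluster. Nova1, a neuronal splicing factor, and Tnrc6b, a partner of Argonaute, had 9 and 7 window clusters up to 0.75 and 2.56. In Tnrc6b, 4 of 86 clusters beyond 10000 nt were enriched, up to 5.39.

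Chromatin regulators had 4 of 35 (11.4%, interval 4.54 to 26.0), with a median fold of 0.56, the value of 3 reads against 1. Dnmt3a, a DNA methyltransferase, had 8 of 9 clusters enriched between 5023 and 6141 nt, up to 5.30 (interval 2.78 to 10.62), and none of 4 in its last 5000 nt. Tet3, which oxidises methylcytosine, reached 4.22 and Setd7, a lysine methyltransferase, 3.98. Tet3 was not called with input counts of 1 left uncalled. Kmt2e had 8 window clusters without enrichment, up to 1.78.

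Kinases and phosphatases of signalling had 5 of 50 (10%, interval 4.35 to 21.4, median 0.98). This list does not hold Hipk2 and Csnk1d, kinases with enriched window clusters described above. Sbk1 reached 5.44, Gsk3b, a kinase of Wnt and insulin signalling, 5.19 with 4 of 4 clusters enriched (222 reads against 3), Taok1 5.08 with 3 of 14, and Pdpk1 3.68 from 26 reads against 1. Pik3r1, a regulatory subunit of phosphoinositide 3-kinase, had 6 window clusters up to 1.56, while 17 of 19 were enriched nearer the 3′ end. Transporters and channels had 3 of 30 (10%, interval 3.46 to 25.6, median 1.73), and 18 of their 25 enriched clusters were those of Slc1a2. Kcna2 reached 4.41 and Slc7a2, a transporter of cationic amino acids, 3.73, while Slc38a1, a glutamine transporter, reached 2.98 in 2 clusters and Slc4a8, a bicarbonate transporter, 2.44 in 5. Pdpk1 and Slc7a2 were called neither at a −log10 p minimum of 5 nor with input counts of 1 left uncalled. Of the 5 factors of nonsense-mediated decay with a window cluster none was enriched, out of 6 clusters, with a fold of 1.56 in Smg5 and 0.56 in Smg6. With 5 genes, the Wilson interval of this share reaches 43.4%.

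**Figure D5:**
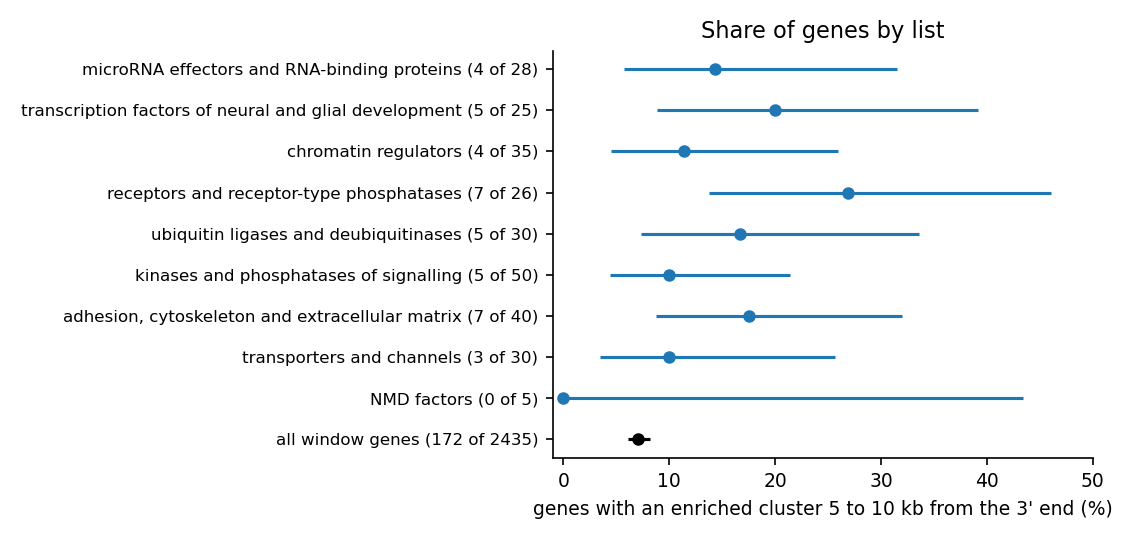
Percentage of genes with an enriched cluster 5 to 10 kb from the 3′ end (x axis) for each list, with Wilson 95% intervals and, in brackets, the number enriched of those with a window cluster; black marks all window genes, 7.06%. The intervals of the receptors, the transcription factors, the adhesion genes and the ubiquitin genes lie above that value, and the others include it. Without Usp6nl the ubiquitin interval includes it too. The lists were drawn up with earlier results known and differ in window clusters per gene, so this is a description and not a test.

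Beyond the window, 17 of the 172 genes had enriched clusters farther than 10000 nt from the 3′ end, 9 of them between 10000 and 20000 nt. All 172 genes together had 393 clusters at 10000 to 20000 nt, of which 32 were enriched (8.14%), all in those 9 genes. In all loci of at least 20000 nt it was 142 of 8702 (1.63%). At the borders of the window, the enriched cluster just inside 5000 nt was in Xpr1, a phosphate exporter, at 5004 nt with a fold of 5.08 (not called with input counts of 1 left uncalled), and the one just outside was in Tacc1 at 4997 nt with 5.47. Just inside 10000 nt lay a cluster of Hipk2 at 9946 nt with 4.88, and just outside one of Opa1, a mitochondrial fusion protein, at 10053 nt with 3.70.

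As a check on the cell type, clusters were assigned to 10 of 12 glial, 10 of 12 progenitor and 5 of 10 neuronal marker genes, and to none of 13 genes marking blood, vessel, fibroblast or microglial cells. The glial, progenitor and neuronal genes held 125, 162 and 209 clusters. Of the last list, Pdgfrb held a cluster when either strand was counted. An enriched cluster lay in 10 of the glial, 7 of the progenitor and 3 of the neuronal genes. A cluster that is not enriched over input does not show bound RNA, and no cluster shows how much of the RNA there was. In the window, only Dcx among all these markers was enriched. The pull-down was made from a whole culture, so fewer cells holding an RNA and less of it per cell cannot be told apart.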

How the data were processed

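UPF1 eCLIP and input libraries (1 each, with no replicates) were prepared from cultured mouse neural progenitor cells. Reads were handled with UMI-tools, cutadapt and STAR on mm10, per the submitters' processing notes; the sources used here give no tool versions, cluster caller or library depths. For each cluster the authors deposited a log2 fold of immunoprecipitate over input and a −log10 p, in a list without a header, so both units were read from the values. Clusters were assigned by midpoint to RefSeq loci (GRCm38.p6), with the strand from RefSeq for 1994 of the 2435 member loci and from the clusters themselves (at least 80% of 2 or more on 1 strand) for 441. Where both were known they gave the same strand for 4338 of 4342 loci. Read counts were rebuilt on the premise that the commonest fold is 3 immunoprecipitate reads against 1 input read. This reproduced both columns for 90030 of the 90350 clusters with a fold above 0. A run on simulated data was built on the same premise and p formula, so it checks the calculation only and not the premise. Intervals are 95% Wilson for shares and Clopper-Pearson for folds and cover counting error only. Named genes are those with the most enriched nucleotides, highest folds, farthest stretches, widest gaps, or most clusters without enrichment, in the window or in each list, and those at its borders; some of these genes are not reported here. The members and lists were chosen with earlier results of these data known. Alternatives changed the thresholds, locus assignment, position, locus length, gap, input counts and read minimum. Python 3.11.15, pandas 2.3.3, numpy 2.4.6, scipy 1.17.1 and matplotlib 3.10.9 were used.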

Additional observations from a re-analysis of the deposited data

How the results depend on the processing

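With a log2 fold of at least 2 the enriched share of the window was 11.9% (12.9% of all clusters), with a −log10 p of at least 5 it was 7.88%, and in loci of at least 50000 nt 12.8%. With input counts of 1 left uncalled it was 5.52%, with 112 genes enriched and 35 continuous. Among clusters of at least 20 immunoprecipitate reads it was 60.2%, with a median fold of 3.56. The 18 gapped genes became 31 with a log2 fold of at least 2, 10 with a −log10 p of at least 5, 6 in loci of at least 50000 nt, 10 with input counts of 1 left uncalled, 11 at gaps up to 2000 nt and 10 with a RefSeq strand only; these alternatives for the gapped count were added after seeing the data. Apart from the 112 enriched and 35 continuous genes given above, the other counts of genes stayed within 1.5 times their value. There were 45 continuous genes at gaps up to 500 nt and 61 at gaps up to 2000 nt. Without the listed genes of another class, also chosen after seeing the data, 38 listed genes were enriched in place of 40. Using loci with a RefSeq strand only, an alternative chosen after seeing the data, left 139 of the 172 genes. Of 60 named enriched genes, 9 lost their call with a −log10 p of at least 5 and 13 with input counts of 1 left uncalled. Depth limits the calls to clusters of 24 or more reads. No paired analysis was possible because each kind of library has 1 sample.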

Other observations

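A further 39 clusters lay in the window of a long locus but in several protein-coding loci of their strand, and 7 of them were enriched; they are assigned to no gene. At the other extreme, 8 clusters of the window lay at -3 or below on the log2 scale.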
